A study of Mus musculus with 12 samples.

Results

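The genes described here are 40 genes of the lysosome, taken by their symbols from a deposited table of 55421 mouse genes: 8 genes of the lysosomal membrane and of cholesterol export, 2 transcription factors, 11 proteases, 11 glycosidases, 2 sulfatases, 5 genes of lipid and fatty acyl breakdown and 1 phosphatase. The rule names them by symbol and sets no expression threshold, but they were listed with earlier results of these data known. All 40 had counts, and all 40 passed the low-count filter that left 18108 genes for testing, Ctss only through its paclitaxel libraries. RNA was sequenced from MOC2, a mouse oral squamous cell carcinoma line, in a design of 2 lines by 2 treatments with 3 libraries in each of the 4 groups. The derivative MOC2-25 was labelled EV-proficient. The derivative MOC2-27 was labelled EV-deficient, with its release of extracellular vesicles (EVs, membrane particles shed by cells) blocked genetically. The labels do not name the gene that was altered, and each EV label stands for 1 derivative line, so the label and the line cannot be told apart. Each line was sampled as a control, with DMSO as the labelled treatment, and after 600 nM paclitaxel for 48 h. Paclitaxel stabilises microtubules and was used by the study to make the cells senescent.

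Lysosomes are acidic compartments in which hydrolases break down proteins, sugars, sulfated glycans and lipids that arrive by endocytosis, by autophagy or from the secretory pathway. Most soluble hydrolases reach them by a mannose 6-phosphate tag, while a proton pump (the V-ATPase) keeps the lumen acidic and membrane proteins line the compartment and export its products. Many of these genes are known targets of Tfeb and Tfe3, factors whose activity is set largely by their movement into the nucleus, and which bind the motif CACGTG and its longer forms. Senescent cells are known for enlarged lysosomes, and the product of Glb1 is the source of the beta-galactosidase stain used to mark them.

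Levels are given as CPM (a gene's counts over its library's total, scaled to a common size with TMM), which measure a gene's part of the counted RNA and not an amount per cell. In bulk RNA, more RNA per cell and more cells expressing a gene cannot be told apart. The libraries held between 23263472 and 62955757 counts, and a floor of 3 counts corresponded to 0.0492 to 0.121 CPM. Fold changes are log2 values with a standard error (SE) from edgeR's quasi-likelihood test, and a gene is said to have risen or fallen where its p-value, adjusted over all 18108 genes, was under 0.05. The labels number the replicates without saying that they came from separate cultures, so the p-values measure only the spread between these libraries.

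Several properties of whole libraries moved with the groups. On a principal component holding 16.4% of the variance, untreated EV-proficient libraries fell together with drug-treated EV-deficient ones (27.2 to 43.5), and untreated EV-deficient libraries with drug-treated EV-proficient ones (-64.6 to -20.5). Differences between EV labels are therefore given for the libraries as labelled. The altered gene is not named, so no target gene could check the EV labels. A row named dngfr, which the authors added to the table and which names no mouse gene, bears on whether the labels match across the treatments. It had 5.72 to 12.2 CPM in untreated EV-proficient and 9.62 to 12.4 CPM in drug-treated EV-deficient libraries, but 1.89 to 2.54 CPM in untreated EV-deficient and 2.47 to 3.76 CPM in drug-treated EV-proficient ones. This is the grouping of the principal component, so neither measure kept the same order of the labels under both treatments. Whether libraries were exchanged or the lines responded in opposite ways cannot be told apart with these values, and each EV difference, within-label effect and interaction holds only if the labels are right for every library. For that reason effects of the drug are given within each label, as the mean of both labels and, where a direction turned, against the DMSO libraries of the other label. Of 9 squamous epithelial markers, 7 were above 1 CPM in all 12 libraries, while Krt5 and Trp63 were at most at 0.180 CPM. The summed level of this list was 5066 to 5497 CPM in EV-proficient and 5672 to 6180 CPM in EV-deficient DMSO libraries, and 3511 to 3839 and 3077 to 3194 CPM under paclitaxel. The 8 macrophage and leukocyte markers summed to 55.7 to 69.4 CPM in untreated and 92.0 to 97.9 in treated EV-proficient libraries, and to 77.4 to 82.1 and 76.3 to 86.1 CPM in the EV-deficient ones, carried mostly by Mrc1 and Cd14. Tyrobp had at most 3 counts in all 12 libraries, and Adgre1 in 11. The 7 fibroblast markers summed to 1.58 to 3.33 CPM in the DMSO libraries and 5.38 to 8.64 CPM under paclitaxel, and the 4 endothelial markers to 1.77 to 4.35 CPM over all libraries. Mitochondrial genes took 0.653% ± 0.090 and 0.644% ± 0.076 of the counts in the EV-proficient and EV-deficient DMSO libraries, and 0.878% ± 0.031 and 1.27% ± 0.19 under paclitaxel (SD, n = 3 each). The part of these shifts in the results below was not tested.

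Promoters are shown for the members whose window holds the motif CACGTG, since this is the sequence that Tfeb and Tfe3 are known to bind. RefSeq (GRCm38.p6) gave a window from 250 bases before to 50 after the start for 36 of the 40 genes. The set of windows used here held none for Npc1, Asah1, Ctsh and Ctsb. CACGTG, which reads the same on both strands, was found in 12 of the 36 genes (33.3%), against 8.09% of all 27025 genes with such windows. The longer form TCACGTGA, which contains CACGTG, was found in 5 members (13.9%), Ctsa, Cln3, Ctsd, Mcoln1 and Gla, against 1.12% of all genes. The full palindromic CLEAR motif, longer by a base at each end, was found in Cln3 (2.78%), against 0.37% of all genes. Lamp1 held CACGTG 4 times, and Ctsa, Cln3, Ctsd, Mcoln1 and Gla held it 2 times each. One site per gene follows, read 5′ to 3′ on the gene's own strand, with the longest of these motifs in capitals.
Glb1 (chr9:114401018-114401047, plus strand): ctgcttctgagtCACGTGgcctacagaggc
Lamp1 (chr8:13159121-13159150, plus strand): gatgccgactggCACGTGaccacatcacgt
Mcoln1 (chr8:3500462-3500491, plus strand): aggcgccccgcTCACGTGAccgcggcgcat
Cln3 (chr7:126583340-126583369, minus strand): cacgggtactGTCACGTGACccccaacctg
Ctsa (chr2:164833749-164833778, plus strand): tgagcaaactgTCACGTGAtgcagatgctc
Ctsd (chr7:142387908-142387937, minus strand): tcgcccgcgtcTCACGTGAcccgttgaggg
Ctsf (chr19:4855074-4855103, plus strand): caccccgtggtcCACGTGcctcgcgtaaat
Ctsl (chr13:64370739-64370768, minus strand): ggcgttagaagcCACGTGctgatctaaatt
Gaa (chr11:119267811-119267840, plus strand): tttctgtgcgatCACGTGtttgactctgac
Gla (chrX:134601215-134601244, minus strand): taagcgattgaTCACGTGAgcatctacgtc
Naglu (chr11:101070009-101070038, plus strand): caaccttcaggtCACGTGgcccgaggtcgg
Sgsh (chr11:119355522-119355551, minus strand): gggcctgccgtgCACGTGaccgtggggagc

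Counted from the start (+1), the CACGTG of the printed site began 48 bases upstream in Glb1, 28 in Lamp1, 79 in Ctsf, 73 in Naglu and 29 in Sgsh, and farther up in Gla (227) and Ctsl (236). A match is a description of the letters and says nothing of binding. Under paclitaxel (mean of both labels), 9 of the 12 members with CACGTG rose, Sgsh fell, and Cln3 and Ctsl did not pass. Of the 23 others with a window and no match, Ctss left out, 16 rose and 3 fell, while 37.1% of all genes tested rose and 31.3% fell. The median log2 change was 0.49 in the first set and 0.41 in the second, a difference that was not tested.

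Most of the lysosomal genes rose under paclitaxel. Counts are given over the 39 genes other than Ctss, which could enter the test only where it was high. In EV-proficient cells 21 rose and 6 fell, while 31.1% and 27.1% of all genes tested did so (58.2% in either direction). In EV-deficient cells 31 rose and 3 fell, against 32.4% and 30.5% of all genes (62.9% in either direction). Over both labels (mean effect) 29 rose and 4 fell, against 37.1% and 31.3% (68.4% in either direction). The counts by role given later are to be read against these shares. The median log2 change of these 39 was 0.19 in EV-proficient cells, 0.55 in EV-deficient cells and 0.41 for the mean effect, where the medians of all genes were 0.05, 0.07 and 0.07. The medians of the 39 were 0.38 in EV-proficient and 0.43 in EV-deficient cells against the DMSO libraries of the other label, so most of the gap between the lines rests on the EV labels. Upper-quartile scaling moved the median of all genes by 0.18 in EV-deficient cells and by 0.12 for the mean effect.

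The calls of each gene were then set side by side for the lines. In all, 21 of the 40 rose in both EV labels (18.9% of all genes tested), Ctsz fell in both (18.5% of all genes), and Lamp1, Ctsc, Gusb and Ids fell in EV-proficient but rose in EV-deficient cells (7.09% of all genes passed in opposite directions). Without regard to the EV label, 24 genes had all 6 paclitaxel libraries above all 6 DMSO libraries, against 18.3% of all genes. Ctsz had all 6 below, against 18.5%. The 40 genes together held 0.455% ± 0.0036 of all counts without and 0.567% ± 0.0048 with the drug in EV-proficient cells, and 0.397% ± 0.0040 without and 0.684% ± 0.018 with it in EV-deficient cells (SD, n = 3 libraries a group). Ctsl alone was 24.5%, 18.2%, 21.8% and 17.3% of these member counts, in the same order of groups, and without it the shares were 0.343%, 0.464%, 0.310% and 0.566%.

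**Figure D1:**
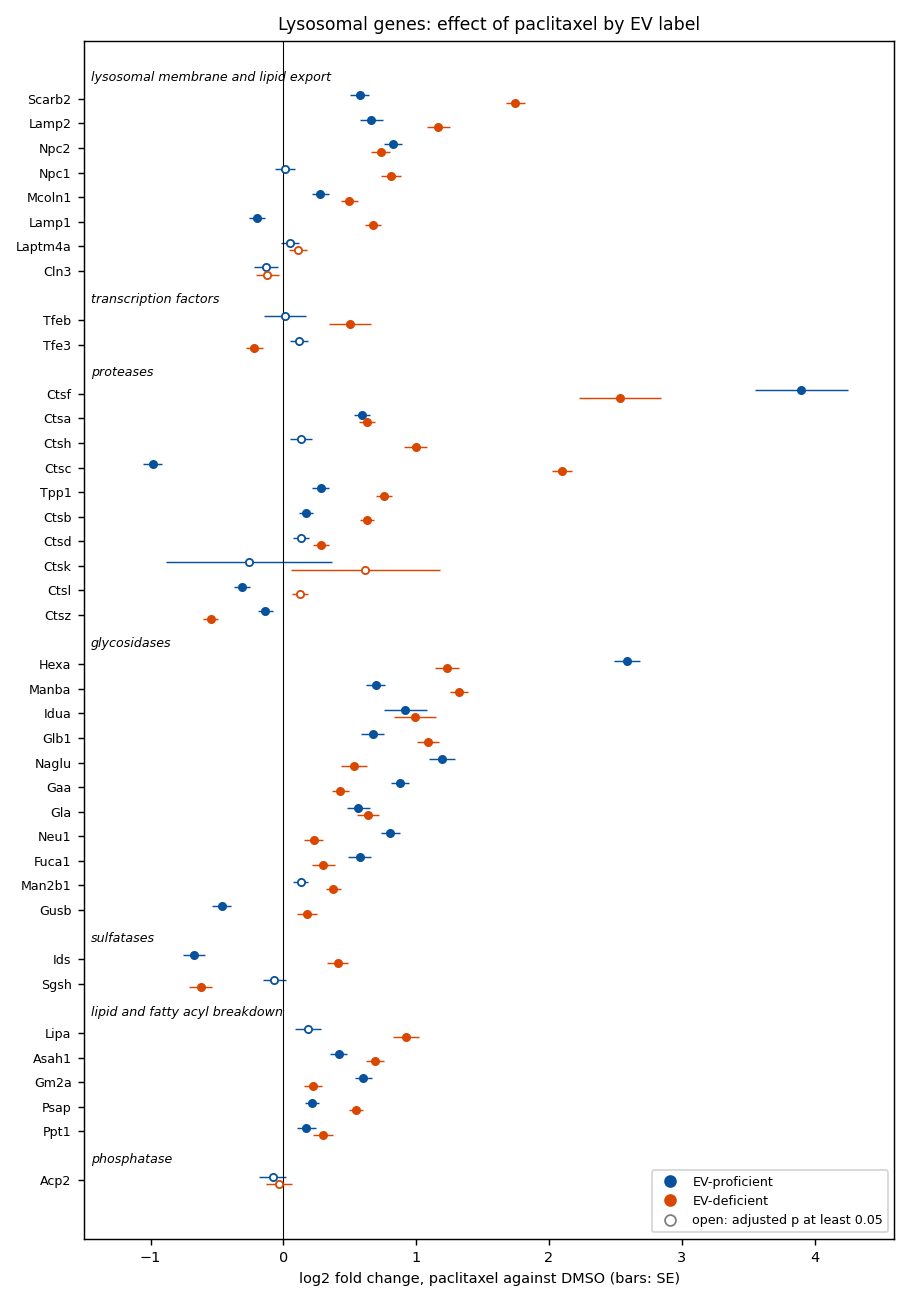
Log2 fold change of paclitaxel against DMSO (x axis) for 39 of the genes (Ctss left out), grouped by role, in EV-proficient (blue) and EV-deficient (orange) cells; bars are SE and open circles have an adjusted p of at least 0.05. Most points lie right of 0, Ctsf and Hexa lie far right in both labels, and Ctsc lies on opposite sides.

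Levels differed widely between members. Per kilobase of exon (GENCODE M21 gene models, GRCm38), Lamp1, Ctsl and Ctsz were the highest of the 40 in DMSO, with 166 to 223, 142 to 197 and 153 to 175 CPM per kb over the 6 DMSO libraries, ranges that overlapped. Their order differed between the lines: the means were 215, 187 and 157 CPM per kb in EV-proficient and 168, 147 and 171 in EV-deficient cells, so Ctsz was highest in the latter. Psap, Ctsd, Laptm4a, Asah1 and Ctsb came next, with group means in DMSO from 52.2 to 124 CPM per kb. Tfeb (1.35 CPM per kb in EV-proficient and 1.00 in EV-deficient DMSO libraries), Idua (0.941 and 1.06), Ctsk, Ctsf and Ctss were the lowest, and the ranges of Tfeb and Idua over the DMSO libraries overlapped. Glb1 stood at rank 17 in EV-proficient and 18 in EV-deficient DMSO libraries, and at 16 and 15 under paclitaxel. Hexa moved from rank 30 to rank 12 with the drug in EV-proficient cells and from 20 to 16 in EV-deficient cells. All these ranks depend on the lengths used, the union of exons over all annotated transcripts. These were 6.489 kb for Ctsl, 2.675 for Lamp1 and 1.441 for Ctsz. Without division by length, Ctsl was well above Lamp1 and Ctsz in DMSO. The means were 1213, 574 and 226 CPM in EV-proficient and 955, 450 and 246 CPM in EV-deficient cells.

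Glb1 (ENSMUSG00000045594, chr9:114401076-114474898, plus strand) encodes lysosomal beta-galactosidase, which removes terminal galactose from glycolipids and glycans. Its level in the EV-proficient DMSO libraries was 38.0, 38.2 and 32.7 CPM, and in the EV-proficient paclitaxel libraries 56.4, 62.1 and 54.8 CPM. In EV-deficient cells it was 30.1, 29.8 and 27.7 CPM under DMSO and 63.3, 68.3 and 54.9 CPM under paclitaxel. All 6 paclitaxel libraries lay above all 6 DMSO libraries, and the paclitaxel libraries of the lines overlapped. The log2 fold change was 0.67 ± 0.085 SE in EV-proficient cells (1.59-fold, adjusted p 6.75e-07) and 1.09 ± 0.085 SE in EV-deficient cells (2.13-fold, adjusted p 3.34e-10). The difference between these effects, the interaction, was 0.42 ± 0.12 SE (adjusted p 0.00764). The rise was 0.99 in EV-proficient and 0.77 in EV-deficient cells against the DMSO libraries of the other label, in the opposite order. Under DMSO Glb1 was lower in the cells labelled EV-deficient (-0.32 ± 0.086 SE, adjusted p 0.0100), a call lost without EV-proficient DMSO replicate 1 (-0.28) or 2 (-0.27) or without EV-deficient DMSO replicate 3 (-0.27). Under paclitaxel the labels differed by 0.10 ± 0.083 SE, which did not pass (adjusted p 0.357). Of its exon bases 165 are shared with Tmppe on the same strand, so reads there are uncertain. Among its relatives, Glb1l was at most at 3.46 CPM in the group means and did not pass for the mean effect (0.24 ± 0.15 SE, adjusted p 0.170), and Glb1l2 and Glb1l3 were too low to be tested.

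The other glycosidases mostly rose as well. Of the 11, 10 rose and Gusb fell in the mean effect. All 11 rose in EV-deficient cells, and in EV-proficient cells 9 rose, Gusb fell and Man2b1 did not pass. Hexa (chr9:59539540-59565109, plus strand) encodes the alpha subunit of hexosaminidase A, which degrades a brain ganglioside and is lost in Tay-Sachs disease. Its level was 8.86, 9.19 and 8.37 CPM in EV-proficient DMSO and 53.1, 58.6 and 46.8 CPM in EV-proficient paclitaxel libraries. The EV-deficient libraries had 15.8, 17.9 and 18.7 CPM under DMSO and 40.2, 44.2 and 38.7 CPM under paclitaxel. The groups did not overlap, and the order of the lines turned: EV-deficient was higher under DMSO and lower under paclitaxel. Hexa rose 6.01-fold in EV-proficient cells (log2 2.59 ± 0.098 SE, adjusted p 1.21e-14) and 2.35-fold in EV-deficient cells (1.23 ± 0.091 SE, adjusted p 1.38e-10). The interaction was -1.36 ± 0.13 SE (adjusted p 4.04e-08). Against the DMSO libraries of the other label the rise was 1.60 in EV-proficient and 2.22 in EV-deficient cells, so the order of the lines turned there.

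Manba (beta-mannosidase), Idua (alpha-L-iduronidase, which acts on heparan and dermatan sulfate), Naglu (an N-acetylglucosaminidase of heparan sulfate breakdown), Gaa (the enzyme of lysosomal glycogen breakdown), Gla (alpha-galactosidase, lost in Fabry disease), Neu1 (sialidase) and Fuca1 (fucosidase) rose in both labels. Their log2 fold changes ran from 0.56 (Gla) to 1.20 (Naglu) in EV-proficient cells and from 0.23 (Neu1) to 1.32 (Manba) in EV-deficient cells. Manba rose more in EV-deficient cells (interaction 0.63 ± 0.096 SE, adjusted p 1.77e-05). Naglu, Neu1 and Gaa rose more in EV-proficient cells, with interactions of -0.66 ± 0.14, -0.58 ± 0.10 and -0.45 ± 0.094 (SE; adjusted p 4.40e-04, 1.05e-04 and 5.48e-04). Neu1 rose by 0.33 in EV-proficient and 0.71 in EV-deficient cells against the DMSO libraries of the other label, in the opposite order. Manba was at 1.02 and 1.00 there, its order also turned, while Naglu and Gaa (0.68 and 0.62) kept theirs. The effect of the drug on Gla and Idua differed between labels by 0.08 ± 0.12 SE and 0.07 ± 0.23 SE, neither of which passed. Man2b1, an alpha-mannosidase, rose in EV-deficient cells (0.38 ± 0.058 SE, adjusted p 7.09e-06). The rise of Neu1 in EV-deficient cells was no longer called without EV-deficient DMSO replicate 3 (0.17).

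Gusb, the beta-glucuronidase, was the exception among the glycosidases. Its level was 130.5, 129 and 117 CPM in EV-proficient DMSO and 89.8, 96.3 and 87.0 CPM in EV-proficient paclitaxel libraries. In EV-deficient cells it was 103, 104 and 100.5 CPM under DMSO and 126, 101 and 121 CPM under paclitaxel. The EV-proficient groups were apart, and the EV-deficient groups overlapped through paclitaxel replicate 2. Gusb fell in EV-proficient cells (-0.46 ± 0.074 SE, adjusted p 1.43e-05). In EV-deficient cells it rose by 0.18 ± 0.073 SE (adjusted p 0.0392), a call lost in all but 1 of the 12 fits that left out a library; the rise was 0.11 without EV-deficient paclitaxel replicate 1. Against the DMSO libraries of the other label this second effect was -0.11. The mean effect of -0.14 ± 0.052 SE passed (adjusted p 0.0196), but was -0.02 with upper-quartile scaling and did not pass there.

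**Figure D2:**
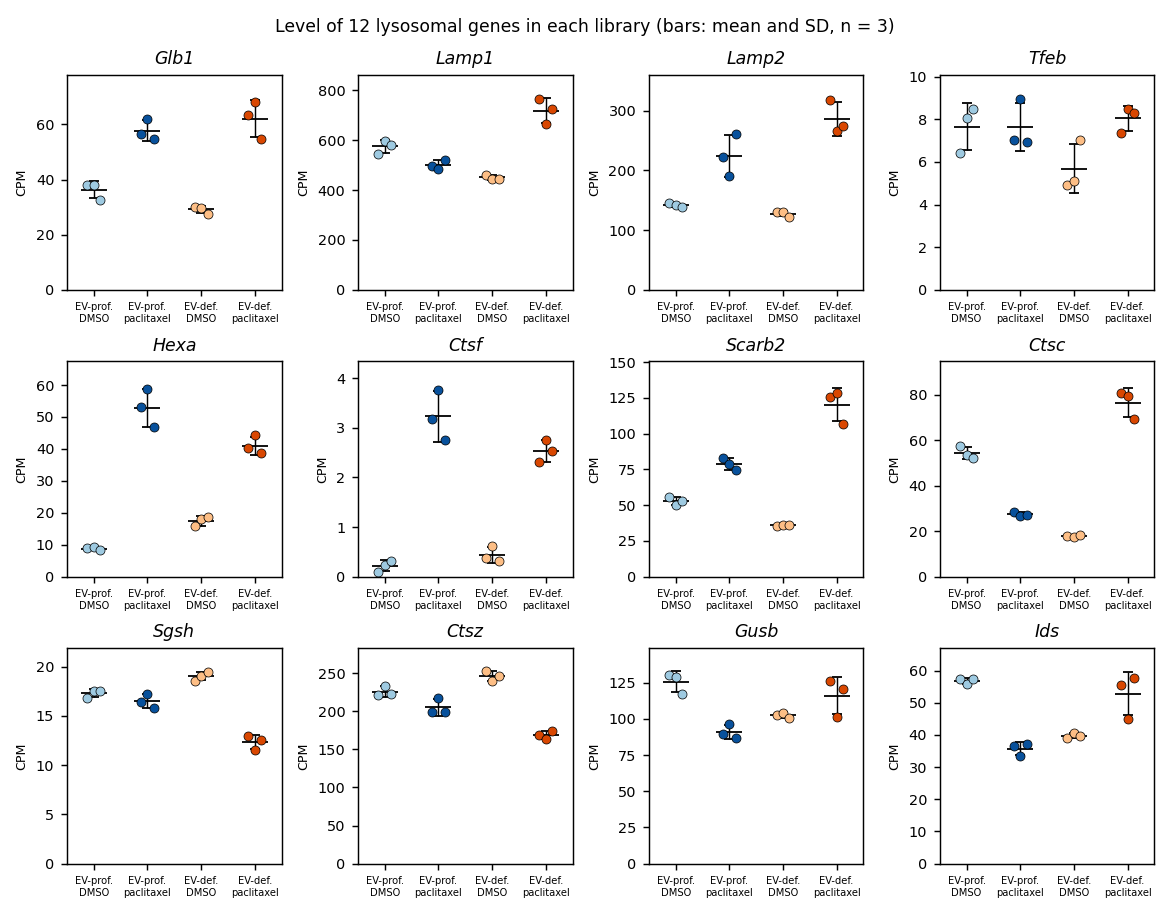
Level in CPM (y axis, from 0) of 12 lysosomal genes in each of the 12 libraries, by group; points are libraries and bars the mean and SD of 3. Glb1, Hexa, Ctsf, Scarb2 and Lamp2 have all paclitaxel points above all DMSO points, Ctsz has them below, and Lamp1, Ctsc, Gusb and Ids go down in EV-proficient and up in EV-deficient cells.

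Among the proteases other than Ctss, 7 of 10 rose and Ctsz fell in the mean effect (37.1% and 31.3% of all genes). In EV-deficient cells 7 rose and 1 fell (32.4% and 30.5%). In EV-proficient cells 4 rose and 3 fell, shares near those of all genes (31.1% and 27.1%). Ctsf (chr19:4855130-4860918, plus strand), cathepsin F, a cysteine protease, changed most of the members that were well above the floor under paclitaxel. It had 0.0974, 0.239 and 0.322 CPM in EV-proficient DMSO and 3.18, 3.76 and 2.75 CPM in EV-proficient paclitaxel libraries. The EV-deficient libraries had 0.375, 0.625 and 0.307 CPM under DMSO and 2.31, 2.75 and 2.54 CPM under paclitaxel. It was scarce without the drug in both lines and higher in every paclitaxel library. The log2 fold change was 3.90 ± 0.35 SE in EV-proficient cells (14.9-fold, adjusted p 4.67e-09) and 2.53 ± 0.31 SE in EV-deficient cells (5.79-fold, adjusted p 3.02e-07). Against the DMSO libraries of the other label the values were 2.89 and 3.54, in the opposite order. The interaction of -1.37 ± 0.48 SE passed (adjusted p 0.0270), but was no longer called without any 1 of 5 libraries (-1.02 without EV-proficient DMSO replicate 1, -1.34 and -1.19 without EV-proficient paclitaxel replicates 1 and 2, -1.04 without EV-deficient DMSO replicate 2 and -1.27 without EV-deficient paclitaxel replicate 1).

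Ctsc (chr7:88278085-88310888, plus strand) encodes the dipeptidyl peptidase that activates serine proteases of immune cell granules, and of the members it had the widest difference in response to paclitaxel between the lines as labelled. The EV-proficient DMSO libraries had 57.2, 53.3 and 52.2 CPM and the EV-proficient paclitaxel libraries 28.5, 26.8 and 26.9 CPM. In EV-deficient cells Ctsc had 17.8, 17.5 and 18.2 CPM under DMSO and 80.8, 79.4 and 69.2 CPM under paclitaxel. The 4 groups did not overlap, and the EV-deficient cells held both the lowest and the highest level. Ctsc fell in EV-proficient cells (-0.98 ± 0.074 SE, adjusted p 2.74e-10) and rose 4.29-fold in EV-deficient cells (2.10 ± 0.075 SE, adjusted p 3.77e-15), with an interaction of 3.08 ± 0.10 SE (adjusted p 1.87e-15). Set against the DMSO libraries of the other label instead, the EV-proficient paclitaxel libraries were higher by 0.62 and the EV-deficient ones by 0.49, so the fall and the positive interaction both rest on the EV labels of the DMSO libraries.

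Cathepsin S (Ctss), known from antigen-presenting cells, was near the floor. It had 2, 0 and 2 counts without and 4, 20 and 0 counts with paclitaxel in EV-proficient cells, and 4, 0 and 0 without and 17, 9 and 50 with it in EV-deficient cells. Only the EV-deficient paclitaxel libraries were all above the DMSO libraries. It passed the low-count filter only through paclitaxel libraries, with at most 4 counts in any DMSO library, so no fold or test is given. The leukocyte markers given above were highest in the EV-proficient paclitaxel libraries, and their part in these counts was not tested. Ctsk, a collagenolytic cathepsin of osteoclasts, had 4 to 35 counts per library and did not pass in any of the 6 comparisons.

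Of the abundant cathepsins, Ctsb rose in both labels, by 0.17 ± 0.054 SE in EV-proficient cells (adjusted p 0.0103) and 0.63 ± 0.054 SE in EV-deficient cells (adjusted p 1.57e-09). The first of these calls was lost without any 1 of the 3 EV-proficient paclitaxel libraries (0.11 to 0.14) or without EV-deficient paclitaxel replicate 1 (0.12). Ctsd, the aspartic protease, rose in EV-deficient cells (0.28 ± 0.062 SE, adjusted p 4.17e-04) and was 0.13 ± 0.062 SE in EV-proficient cells, which did not pass. Ctsl, a cysteine endopeptidase, fell in EV-proficient cells (-0.31 ± 0.060 SE, adjusted p 1.33e-04). In EV-deficient cells it was 0.13 ± 0.060 SE, which did not pass (adjusted p 0.0748). Both effects on Ctsl turned against the DMSO libraries of the other label, to 0.03 and -0.22. Ctsh, an aminopeptidase, rose in EV-deficient cells (1.00 ± 0.084 SE, adjusted p 1.12e-09) and was 0.13 ± 0.084 SE in EV-proficient cells; against the DMSO libraries of the other label these were 0.43 and 0.70. Ctsa, which shields Glb1 and Neu1 in a complex, rose by 0.59 ± 0.060 SE and 0.63 ± 0.060 SE, and its interaction of 0.04 ± 0.085 SE did not pass. Tpp1, a tripeptidyl peptidase, rose in both labels, more in EV-deficient cells (interaction 0.48 ± 0.090 SE, adjusted p 1.94e-04).

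Ctsz, a carboxypeptidase also called cathepsin X, was the only member that fell in both labels. Its level was 221, 234 and 222 CPM in EV-proficient DMSO and 199, 217 and 198 CPM in EV-proficient paclitaxel libraries. In EV-deficient cells it was 252, 240.0 and 247 CPM under DMSO and 169, 164 and 174 CPM under paclitaxel. Every paclitaxel library was below every DMSO library, narrowly in EV-proficient cells. The fall was -0.55 ± 0.057 SE in EV-deficient cells (adjusted p 3.12e-08). In EV-proficient cells it was -0.14 ± 0.057 SE (adjusted p 0.0448), a call lost in 12 of the 21 other settings, 8 of which left out 1 library (-0.11 without EV-proficient DMSO replicate 2). The fit with the replicate number as a block gave -0.14 there and did not call it.

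The lysosomal membrane genes and the cholesterol carriers rose in 6 of 8 cases in the mean effect and none fell. Lamp1 (chr8:13159161-13175338, plus strand) and Lamp2 (chrX:38401357-38456454, minus strand) encode the most abundant glycoproteins of the lysosomal membrane, and they differed in response. Lamp2 had 145, 142 and 139 CPM without and 223, 190.2 and 260.5 CPM with paclitaxel in EV-proficient cells. The EV-deficient libraries had 129.8, 129.7 and 122 CPM without and 318, 265 and 274 CPM with it. All paclitaxel libraries lay above all DMSO libraries, with a wide spread among the EV-proficient ones. The log2 fold changes were 0.66 ± 0.087 SE (adjusted p 1.06e-06) and 1.17 ± 0.087 SE (adjusted p 1.61e-10).

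Lamp1 had 545, 596 and 582 CPM in EV-proficient DMSO and 497, 483 and 520.0 CPM in EV-proficient paclitaxel libraries. The EV-deficient libraries had 461, 444 and 445 CPM under DMSO and 764, 665 and 725 CPM under paclitaxel. The groups did not overlap, and the drug libraries were the lower ones in EV-proficient and the higher ones in EV-deficient cells. Lamp1 fell by 0.20 ± 0.060 SE on the log2 scale in EV-proficient cells (adjusted p 0.00728) and rose by 0.67 ± 0.061 SE in EV-deficient cells (adjusted p 3.06e-09), with an interaction of 0.87 ± 0.086 SE (adjusted p 4.59e-08). Against the EV-deficient DMSO libraries, the EV-proficient paclitaxel libraries were higher by 0.15. On the opposite strand 249 of the exon bases of Lamp1 are shared with Grtp1.

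Scarb2, the receptor that carries glucocerebrosidase to the lysosome, had 55.6, 50.2 and 53.0 CPM in EV-proficient DMSO and 82.9, 78.5 and 74.9 CPM in EV-proficient paclitaxel libraries. In EV-deficient cells it had 35.2, 35.8 and 36.4 CPM under DMSO and 126, 128 and 107 CPM under paclitaxel. As with Ctsc, the EV-deficient cells held both the lowest and the highest group, and no groups overlapped. It rose 1.49-fold in EV-proficient cells (0.58 ± 0.073 SE, adjusted p 6.28e-07) and 3.36-fold in EV-deficient cells (1.75 ± 0.074 SE, adjusted p 3.61e-14), and the interaction was 1.17 ± 0.10 SE (adjusted p 7.92e-09). Against the DMSO libraries of the other label the rises were 1.14 and 1.18, so this difference too rests on the labels of those libraries.

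Npc2, the soluble cholesterol carrier, rose by 0.83 ± 0.069 SE in EV-proficient and 0.73 ± 0.068 SE in EV-deficient cells, with an interaction of -0.10 ± 0.096 SE that did not pass. Npc1, its membrane partner, rose in EV-deficient cells (0.81 ± 0.075 SE, adjusted p 4.73e-09) and was 0.01 ± 0.076 SE in EV-proficient cells, a difference that passed (interaction 0.79 ± 0.11 SE, adjusted p 3.45e-06). Mcoln1, a cation channel that releases lysosomal calcium, rose in both labels, by 0.28 ± 0.066 SE and 0.50 ± 0.065 SE. Cln3, mutated in juvenile Batten disease, and Laptm4a, a small membrane protein of late endosomes, did not pass under paclitaxel in either label. Their log2 values ran from -0.13 (Cln3, EV-proficient) to 0.11 (Laptm4a, EV-deficient), and with upper-quartile scaling Laptm4a passed in EV-deficient cells (0.30).

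The transcription factors had small effects. Tfeb had 6.40, 8.06 and 8.48 CPM without and 7.05, 8.96 and 6.96 CPM with paclitaxel in EV-proficient cells. EV-deficient libraries had 4.94, 5.11 and 7.01 CPM without and 7.36, 8.48 and 8.30 CPM with it. The treatments overlapped in EV-proficient cells and were apart by a small gap in EV-deficient cells. It rose in EV-deficient cells (0.50 ± 0.16 SE, adjusted p 0.00773), a call lost without EV-deficient DMSO replicate 1 (0.40) or 2 (0.42), and against the EV-proficient DMSO libraries the value was 0.07. In EV-proficient cells it was 0.01 ± 0.16 SE. The mean effect of 0.26 ± 0.11 SE passed narrowly (adjusted p 0.0451) and was lost in 10 of the 12 fits without 1 library (0.16 without EV-proficient paclitaxel replicate 2). Tfe3 fell in EV-deficient cells (-0.22 ± 0.064 SE, adjusted p 0.00536), was 0.12 ± 0.065 SE in EV-proficient cells, and its interaction passed (-0.34 ± 0.091 SE, adjusted p 0.00507). With upper-quartile scaling the fall of Tfe3 was -0.03 and did not pass.

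Both sulfatases fell in the mean effect. Sgsh, which removes sulfate from heparan, had 16.8, 17.6 and 17.5 CPM without and 16.4, 17.3 and 15.8 CPM with paclitaxel in EV-proficient cells. The EV-deficient libraries had 18.6, 19.1 and 19.5 CPM without and 13.0, 11.6 and 12.5 CPM with it. The EV-proficient groups overlapped, and the EV-deficient groups were apart. Sgsh fell in EV-deficient cells (-0.62 ± 0.087 SE, adjusted p 1.93e-06) and was -0.07 ± 0.087 SE in EV-proficient cells, and the interaction was -0.56 ± 0.12 SE (adjusted p 9.54e-04). Its exons share 955 bases with Card14 on the opposite strand, and Card14 had 9990 counts over the 12 libraries against 9071 for Sgsh, so its counts are uncertain where strand was not used.

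Ids, the sulfatase of heparan and dermatan sulfate that is lost in Hunter syndrome, had 57.5, 55.8 and 57.5 CPM in EV-proficient DMSO and 36.6, 33.5 and 37.1 CPM in EV-proficient paclitaxel libraries. The EV-deficient libraries held 39.1, 40.7 and 39.7 CPM under DMSO and 55.7, 45.1 and 57.7 CPM under paclitaxel. Within each line the treatments did not overlap, and they moved in opposite directions. Ids fell by 0.67 ± 0.081 SE on the log2 scale in EV-proficient cells (adjusted p 3.36e-07) and rose by 0.41 ± 0.080 SE in EV-deficient cells (adjusted p 1.32e-04), and the interaction was 1.08 ± 0.11 SE (adjusted p 1.34e-07). With the DMSO libraries of the other label as reference, Ids was at -0.16 in EV-proficient and -0.11 in EV-deficient paclitaxel libraries, so the opposite directions rest on the EV labels. The mean effect of -0.13 ± 0.057 SE passed (adjusted p 0.0446), but not with upper-quartile scaling (-0.01), with the stricter filter (-0.09) or without any 1 of 5 DMSO libraries (-0.15 to -0.13).

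All 5 genes of lipid and fatty acyl breakdown rose in EV-deficient cells and in the mean effect, and all but Lipa rose in EV-proficient cells. Asah1, the acid ceramidase, rose by 0.41 ± 0.067 SE and 0.69 ± 0.067 SE in EV-proficient and EV-deficient cells. Psap, the precursor of the saposins that present sphingolipids to their hydrolases, rose by 0.22 ± 0.055 SE and 0.55 ± 0.055 SE, the first no longer called without EV-proficient paclitaxel replicate 2 (0.13). Gm2a, the activator protein that works with hexosaminidase A, rose by 0.60 ± 0.067 SE and 0.22 ± 0.066 SE, with a negative interaction like that of Hexa (-0.38 ± 0.094 SE, adjusted p 0.00237). Its rise in EV-deficient cells was no longer called without EV-deficient paclitaxel replicate 1 (0.16). Lipa, the acid lipase, rose in EV-deficient cells (0.92 ± 0.096 SE, adjusted p 3.02e-08) and was 0.19 ± 0.098 SE in EV-proficient cells. Ppt1, which removes palmitate from proteins, rose by 0.17 ± 0.074 SE (adjusted p 0.0497) and 0.30 ± 0.073 SE (adjusted p 0.00118). The first of these was lost in 15 of the 21 other settings (0.10 without EV-proficient paclitaxel replicate 1). Acp2, a lysosomal acid phosphatase, did not pass in any of the 6 comparisons, with log2 values from -0.08 to 0.13.

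The interaction, the effect of paclitaxel in EV-deficient minus that in EV-proficient cells, passed for 26 of the 40 genes, 17 positive and 9 negative, where 16.9% and 23.8% of all genes tested passed in these directions (40.7% in either). The median interaction of the members other than Ctss was 0.22, and that of all genes was -0.04. With upper-quartile scaling these were 20 and 8 members, the median of all genes was 0.08, and positive calls went from 41.4% to 53.9% of the calls over all genes. Against the DMSO libraries of the other label, the difference between the lines was smaller in size for all 26, and its sign turned for 8 (Ctsc, Ctsf, Ctsh, Ctsl, Glb1, Hexa, Manba and Neu1). The 26 were picked for a large difference as labelled in these same data. A smaller one here was nearly set by that choice and says nothing of the labels, and the share over all genes was not computed. The median difference of the 39 was 0.06 there. These differences were not tested. The positive calls as labelled were Ctsc, Scarb2, Ids, Lamp1, Ctsh, Npc1, Lipa, Gusb, Manba, Lamp2, Tpp1, Ctsb, Ctsl, Glb1, Psap, Asah1 and Man2b1, from 3.08 down to 0.25. The negative ones were Ctsf, Hexa, Naglu, Neu1, Sgsh, Gaa, Ctsz, Gm2a and Tfe3, from -1.37 to -0.34. By role, the membrane genes had 4 positive and 0 negative calls, the proteases 5 and 2, the glycosidases 4 and 4, and the lipid genes 3 and 1. The calls of Man2b1 (0.25 ± 0.082 SE) and Asah1 (0.28 ± 0.095 SE) were each lost in 5 and 4 fits without 1 library, where they ran from 0.22 to 0.23 and from 0.23 to 0.26.

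**Figure D3:**
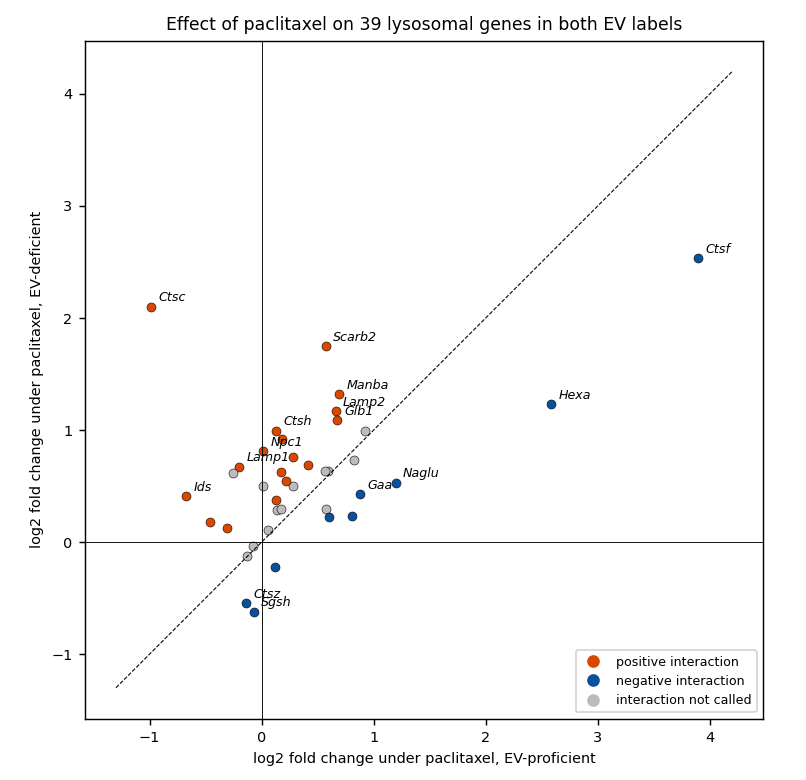
Log2 fold change under paclitaxel in EV-deficient (y axis) against EV-proficient cells (x axis) for 39 genes (Ctss left out); the dashed line marks equal effects, orange and blue points have a positive or negative interaction with an adjusted p under 0.05, and grey points do not. Ctsc lies farthest above the line among the called genes, and Ctsf and Hexa lie below it.

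The EV labels were then compared within each treatment. Under DMSO 3 of the 40 genes were higher in the cells labelled EV-deficient and 12 were lower, against 12.4% and 10.6% of all genes tested (23% in either direction). Under paclitaxel 16 were higher and 7 lower, against 16% and 21.8% of all genes (37.8% in either direction). With upper-quartile scaling the calls under paclitaxel were 22 higher and 4 lower, and the share of higher calls among all genes went from 42.4% to 58.2%. The genes higher without drug were Hexa (0.99 ± 0.098 SE, adjusted p 1.22e-07), Neu1 (0.48 ± 0.073 SE, adjusted p 4.37e-05) and Gaa (0.20 ± 0.066 SE, adjusted p 0.0369), the last of which was lost in 10 of the 12 fits without 1 library (0.16 without EV-deficient paclitaxel replicate 1). Ctsc (-1.61 ± 0.075 SE, adjusted p 8.80e-13), Ctsh (-0.57 ± 0.085 SE, adjusted p 3.09e-05) and Scarb2 (-0.56 ± 0.073 SE, adjusted p 5.61e-06) were the lowest there.

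Direction turned between the treatments for many of them. Of the 40 genes, 12 passed under both treatments with opposite signs, where 15% of all genes did so: Lamp1, Scarb2, Npc1, Ctsb, Ctsc, Ctsh, Gaa, Gusb, Hexa, Manba, Ids and Psap. No member passed under both with the same sign, and 0.619% of all genes did. Regardless of the threshold, 7 of the 40 (17.5%) had the same sign under both treatments, against 32.9% of all genes tested. Ctsc went from -1.61 under DMSO to 1.48 ± 0.073 SE under paclitaxel (adjusted p 3.13e-12). Hexa went from 0.99 to -0.37 ± 0.088 SE (adjusted p 0.00208). The calls of Psap, -0.16 and 0.17, each depended on single libraries, the second being lost without EV-proficient paclitaxel replicate 3 (0.12). The dngfr row crossed in the same way, with 8.99 ± 3.2 CPM without and 3.24 ± 0.68 CPM with the drug under the EV-proficient label, and 2.14 ± 0.35 CPM without and 10.9 ± 1.4 CPM with it under the EV-deficient label (SD, n = 3 a group). What connects this row with the members was not tested.

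**Figure D4:**
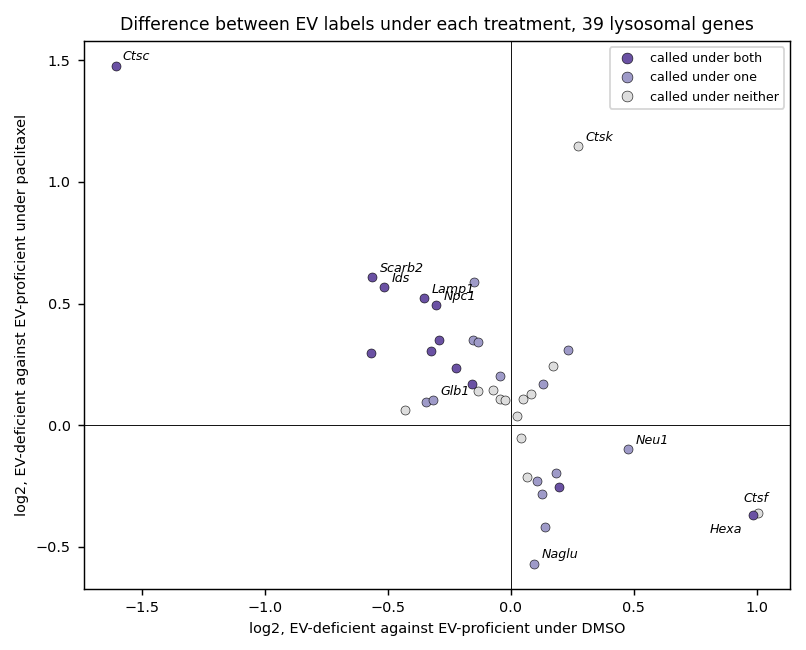
Log2 difference between EV-deficient and EV-proficient cells under DMSO (x axis) and under paclitaxel (y axis) for 39 genes (Ctss left out); dark points passed the threshold of 0.05 under both treatments, lighter ones under 1 and the lightest under neither. The 12 dark points lie in the upper left and lower right, where the signs are opposite.

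Other genes of the lysosome, in lists written for this report, were read beside the members for the mean effect of paclitaxel, where 37.1% of all genes rose and 31.3% fell. Genes that reached the filter level in fewer than 3 libraries of one treatment or the other were left out of these counts. Of 22 other hydrolases (without Rnaset2a) 17 rose and 4 fell (median 0.37). Cathepsin O (Ctso) rose from 2.24 ± 0.32 to 9.70 ± 1.3 CPM in EV-proficient and from 1.71 ± 0.34 to 13.9 ± 2.2 CPM in EV-deficient cells (SD, n = 3 each). Arsa, which removes sulfate from sulfatide, rose in the mean effect (1.25 ± 0.071 SE). Of 17 other membrane genes 14 rose and 3 fell (median 0.41). They included Cd68, a heavily glycosylated lysosomal membrane protein also used as a macrophage marker (2.07 ± 0.11 SE), and Slc17a5, the sialic acid exporter (1.83 ± 0.067 SE). Laptm5, left out, had group means of at most 0.168 CPM.

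Genes of acidification and of hydrolase sorting did not share this direction. Of 20 V-ATPase subunits 6 rose and 10 fell (median -0.05), with Atp6v1g2 at 1.08 ± 0.22 SE, Atp6v0a2 at -0.98 ± 0.055 SE and Atp6v0c at -0.74 ± 0.058 SE. Of 9 genes of mannose 6-phosphate tagging, sorting receptors and sorting adaptors 1 rose and 7 fell (median -0.31). Nagpa, which uncovers the tag, fell by 1.33 ± 0.093 SE on the log2 scale, and Gnptg, a subunit of the tagging enzyme, fell by 0.65 ± 0.11 SE, though its -0.35 in EV-proficient cells did not pass. Sort1, a receptor that sorts some hydrolases independently of the tag, rose by 0.83 ± 0.045 SE. Among 20 genes that control the MiT/TFE factors 5 rose and 9 fell (median -0.08), with Rragd, a GTPase of nutrient sensing at the lysosome, at 2.19 ± 0.091 SE, Mitf, a relative of Tfeb, at 1.14 ± 0.26 SE (0.30 in EV-proficient cells, which did not pass, and 1.97 in EV-deficient cells) and Mlst8, a subunit of the mTOR kinase complexes, at -1.21 ± 0.072 SE. The interaction of Mitf was 1.66 ± 0.53 SE (adjusted p 0.0149). Its mean level was 0.63 CPM under DMSO and 0.77 CPM under paclitaxel in EV-proficient cells. In EV-deficient cells the means were 0.34 and 1.33 CPM. Under DMSO the labels differed by -0.88 ± 0.39 SE, which did not pass (adjusted p 0.113). Each paclitaxel mean was above both DMSO means, so the gap between the lines in the response of Mitf rests on the EV labels. Mitf was not tested against the DMSO libraries of the other label.

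In the list of lysosome movement and fusion 6 of 16 rose and 4 fell (median 0.02). Vps33a, a subunit of the HOPS tethering complex, was at -0.95 ± 0.054 SE, Borcs6, of the BORC complex that couples lysosomes to transport, at 0.55 ± 0.092 SE, and the fusion protein Vamp7 at 0.51 ± 0.064 SE. The cystatins, which inhibit cysteine cathepsins, had 3 tested members and all 3 rose in the mean effect. They were Cstb (1.08 ± 0.044 SE), Cst6 (0.40 ± 0.080 SE) and Cst3 (0.30 ± 0.063 SE; 0.10 in EV-proficient cells, which did not pass). Cst6 fell in EV-proficient cells (-0.32 ± 0.11 SE, adjusted p 0.0178) and rose in EV-deficient cells (1.12 ± 0.11 SE, adjusted p 1.99e-08), as Ctsc did. Its means were 29.0 ± 6.0 CPM under DMSO and 23.1 ± 0.75 under paclitaxel in EV-proficient cells. In EV-deficient cells they were 13.8 ± 1.2 and 30.0 ± 1.7 CPM (SD, n = 3 each). The EV-proficient paclitaxel mean was thus above the EV-deficient DMSO mean, so the opposite directions rest on the EV labels.

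**Figure D5:**
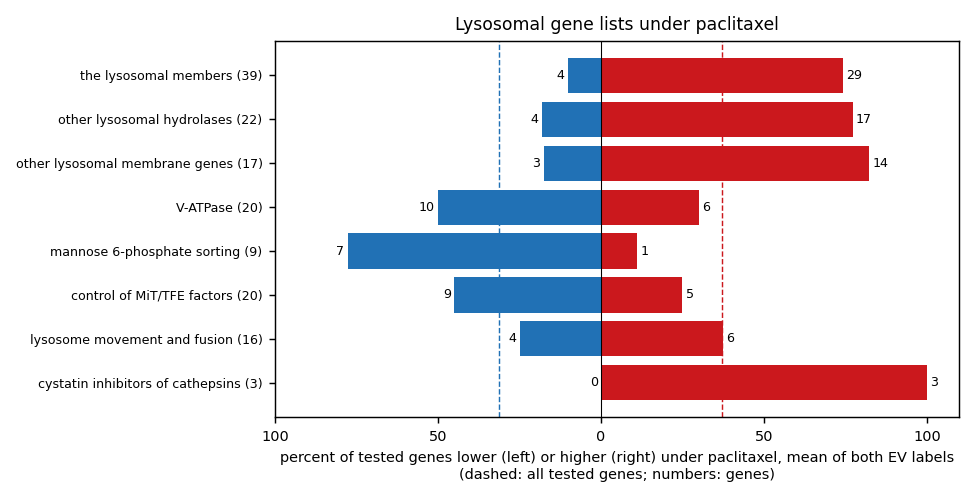
Percent of tested genes that fell (left, blue) or rose (right, red) under paclitaxel in the mean of both EV labels, for 39 lysosomal genes (Ctss left out) and 7 other lists, with the number of genes beside each bar; dashed lines are the shares over all genes tested, 31.3% and 37.1%. The cystatins (3 of 3 rose), the membrane genes (14 of 17) and the hydrolases (17 of 22) extend farthest to the right among the other lists, and the mannose 6-phosphate list farthest to the left.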

How the data were processed

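Per the labels' protocols, poly(A) RNA of 12 samples went into stranded libraries. Whole, unnormalized read counts per gene are what the authors deposited. STAR 2.5.0a and GRCm38 are named in the submitters' processing notes; the counter, the annotation release and the use of strand are not given in the sources used here. Members that share exon bases with a gene on the opposite strand (Lamp1, Npc1, Cln3, Ctsa, Ctsb, Ctsl, Ctsz, Hexa, Idua, Sgsh, Ppt1 and Acp2) are therefore uncertain to that extent. As with Sgsh, such a gene had more counts over the 12 libraries than Cln3 (35115 against 21908), Idua (6662 against 3551) and Ppt1 (285386 against 19893). Columns were matched by the sample descriptions, and 0 columns belonged to other samples. The 2 added rows that name no gene (gfp, dngfr) were left out.

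Counts were tested in R 4.3.3 with edgeR 4.0.16 (quasi-likelihood, TMM factors 0.891 to 1.15, filterByExpr with a minimum count of 10, a mean per group over all 12 libraries), with Benjamini-Hochberg adjustment over 18108 genes in each of 6 comparisons. SE is the log2 change divided by the square root of F. Floors cover counting error only. Replicates of a group differed beyond sampling noise (chi-square per degree of freedom 4.20 to 27.8). On simulated counts for EV-deficient paclitaxel (17327 genes), 86% of 1.5-fold and 100% of 2-fold changes were recovered, with 5 false calls. That simulation gave every gene the same dispersion and changed only 50 genes per fold size, none of the lowest level. In the data 62.9% of genes were called in this comparison, so these figures do not measure the power or the error of the tests here. Exon lengths, positions and overlaps came from GENCODE M21, and promoters from RefSeq.

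All 40 members are accounted for by role. Library values are given for Glb1, Lamp1, Lamp2 and Tfeb, for the 4 highest and 4 lowest mean effects past the threshold, for the 4 largest interactions and for members at most at 3 counts in a group; other lists name at most 3 genes by size of the mean effect. One gene that this rule names is not reported here. The members and lists were chosen with earlier results of these data known. Promoter sites are shown for all 12 members with a match, more than the rule planned (Glb1 and members with the longest motif). The alternatives tried were other scalings (upper quartile, median of ratios), other filters (none, or 1 CPM in 3 libraries), DESeq2 1.42.0, limma-voom (limma 3.58.1), the replicate block, only the groups compared, each library left out and, added after the data were seen, the DMSO libraries of the other label as reference.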

Additional observations from a re-analysis of the deposited data

Results flagged for a closer look

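The effect of paclitaxel differed between the EV labels, by a test of the interaction itself, for 26 of the 40 genes. This holds for the libraries as labelled: no target gene could check the EV labels, and the dngfr row and a principal component did not keep the order of the labels between the treatments. An interaction takes another meaning if the labels are wrong for either treatment, and against the DMSO libraries of the other label the sign turned for 8 of the 26. On the log2 scale (EV-deficient minus EV-proficient) the membrane genes were Scarb2 at 1.17, Lamp1 at 0.87, Npc1 at 0.79 and Lamp2 at 0.51. Tfe3 was at -0.34. The proteases were Ctsc at 3.08, Ctsh at 0.86, Tpp1 at 0.48, Ctsb at 0.46, Ctsl at 0.44, Ctsz at -0.41 and Ctsf at -1.37. The glycosidases were Gusb at 0.64, Manba at 0.63, Glb1 at 0.42, Man2b1 at 0.25, Gaa at -0.45, Neu1 at -0.58, Naglu at -0.66 and Hexa at -1.36. The sulfatases were Ids at 1.08 and Sgsh at -0.56. The lipid genes were Lipa at 0.74, Psap at 0.33, Asah1 at 0.28 and Gm2a at -0.38. Over all genes tested 40.7% passed this comparison.

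The dngfr row, which names no mouse gene and entered no test, reached 10.9 ± 1.4 CPM in the EV-deficient paclitaxel libraries (SD, n = 3), above the means of both DMSO groups. These libraries (9.62 to 12.4 CPM) overlapped the EV-proficient DMSO libraries (5.72 to 12.2 CPM). The gfp row was at 0 in all 12 libraries.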

How the results depend on the processing

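Over all results and settings, 4535 of 4784 values kept their side of the threshold without a reversal, 136 lost a call, 107 gained one and 6 reversed. A reversal was counted only where the sign turned and the main or the other fit passed. Values that passed in neither fit could therefore change sign among the 4535. All 6 reversals came with the DMSO libraries of the other EV label, a setting added after the data were seen: Lamp1 0.15, Ctsc 0.62 and Ctsl 0.032 in EV-proficient cells, and Ctsl -0.22, Gusb -0.11 and Ids -0.11 in EV-deficient cells. With that setting 31 genes passed in EV-proficient cells, 29 higher and 2 lower (in place of 21 and 6). Counts here include Ctss. Total counts of called members or genes stayed within 1.5 times their value under each setting run, but small counts by direction did not all do so. Members lower in the mean effect went from 4 to 2 (upper-quartile scaling, or 1 CPM in 3 libraries). Members lower for the EV labels under paclitaxel went from 7 to 4 (upper-quartile scaling), and members higher under DMSO from 3 to 5 (1 CPM in 3 libraries, or only the groups compared). With 1 library left out, the members called were 24 to 26 (EV-proficient paclitaxel), 33 to 35 (EV-deficient paclitaxel), 32 to 35 (mean), 12 to 18 (EV labels under DMSO), 21 to 24 (under paclitaxel) and 23 to 28 (interaction). Without mitochondrial genes in the total, the members' share of counts in EV-proficient paclitaxel libraries was 0.572% in place of 0.567%.

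Upper-quartile scaling moved the median of all genes by 0.18 in EV-deficient paclitaxel, and by 0.12 in the mean effect and the interaction. Higher calls among all genes went from 51.5% to 63.4% in EV-deficient paclitaxel, and without a low-count filter from 53.9% to 64.1% for the EV labels under DMSO. The cause was not tested.

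With the replicate number as a block, 26, 35, 35, 16, 24 and 26 members passed in these 6 comparisons, and no total moved by over 1.5 times. The 18 pairs of same-numbered libraries deviated together with r from -0.081 to 0.097, none over 0.1, so the numbers were taken as names only. Few counts limit Ctss, Ctsk (4 to 35 per library) and Ctsf, whose EV-proficient effect and interaction rest on 4, 10 and 11 counts in the DMSO libraries.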
